A study of Mus musculus with 21 samples.

Results

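Dendritic cells (DCs) sorted from mouse spleen by the antibody 33D1 were set against CD4 and CD8 T cells sorted from the same organ. The members are 9 of the 21 arrays in the series, chosen by their sample titles: 3 of 33D1 DCs, 3 of CD4 T cells and 3 of CD8 T cells. Every one of these 3 groups came from wild-type C57BL/6 mice. A DC array held RNA pooled from 40 to 80 mice and a T cell array RNA pooled from 5 to 8 mice, per the labels. How one pool of a group was separated from the next is not stated, so the p-values measure the spread between these pools, and that spread may be technical. The arrays were run to find the transmembrane molecule that 33D1 binds on the CD8-negative DCs of the spleen, and to look at molecules tied to MHC class I and class II in DC subsets. The T cells were among the cells against which DC genes were screened. The other wild-type C57BL/6 groups of the series, DCs sorted by the antibody DEC205 and B cells, are used below to list genes shared by 33D1 DCs and T cells and as a comparison for B cell and T cell markers, and all 21 arrays share the estimate of spread.

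DCs are the antigen-presenting cells that start T cell responses. They take up material, cut it in endosomes, load the peptides on MHC class II molecules and show them to CD4 T cells, together with costimulatory ligands and cytokines. The CD8-negative DCs of mouse spleen, which 33D1 marks, lie mainly at the edge of the white pulp and are known for driving CD4 T cell responses. T cells read the peptides through the T cell receptor, whose signal passes through the CD3 chains and a cascade of kinases and adaptors.

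The deposited values are signals, brightness values on a linear scale with 1 value per probe set and array. A difference below is the log2 signal of 33D1 DCs minus the mean of the log2 signals of CD4 and CD8 T cells, so that a difference of 1 is a 2-fold change, and an offset of 48.6 was added to every signal before the log, which understates the change of dim genes. The limma test was run on 13284 genes, each represented by 1 probe set, and genes with a Benjamini-Hochberg adjusted p below 0.05 are termed called. Array medians lay between 131.7 and 204.4 signal units. Replicate arrays of a group correlated at 0.949 to 0.979 across genes, 33D1 DCs with T cells at 0.727 to 0.765, and CD4 with CD8 T cells at 0.931 to 0.963. Genes are not independent replicates, so these values describe the arrays and carry no p. In sorted bulk samples, fewer cells of a type and less RNA per cell cannot be told apart.

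The description field of the T cell samples calls them DCs, so the identity of all 9 arrays was checked first on lineage genes. Itgax, the CD11c integrin chain used to define DCs, had 16934.5, 19355 and 16757.9 signal units in 33D1 DCs, against 311.9, 89.1 and 181.1 in CD4 T cells and 417.3, 401.7 and 253 in CD8 T cells. Every 33D1 array lay far above every T cell array. Sirpa, an inhibitory receptor that marks CD8-negative DCs, had 9188.6, 10256.7 and 11744.9 units in 33D1 DCs, against 152.1, 87.1 and 246.6 in CD4 T cells and 216.8, 208.7 and 130.8 in CD8 T cells, again without overlap. The differences were 5.88 ± 0.27 (SE) for Itgax and 5.60 ± 0.30 for Sirpa, both with adjusted p at or below 4.694e-13.

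The CD3 chains ran the other way. Cd3e had 53, 57.5 and 42.3 units in 33D1 DCs, against 6487.2, 8622.3 and 8134.2 in CD4 T cells and 7122.2, 8315.8 and 8817.1 in CD8 T cells. Cd3d had 16, 25.9 and 17.8 units in 33D1 DCs, against 24765.9, 22775.2 and 21415.2 in CD4 T cells and 24322.2, 25981.3 and 26361.2 in CD8 T cells. On these genes the 6 arrays titled as T cells were T cells, and Cd3d averaged 19.9 units in 33D1 DCs and 26.2 in B cells. Ly75, which encodes DEC205, averaged 169.3 ± 50.7 units (SD, n = 3) in 33D1 DCs, 855 ± 275 in CD4 T cells and 1378 ± 345 in CD8 T cells, a difference of -2.37 ± 0.19. The arrays titled CD8 also carried the coreceptor. Cd8b1, the CD8 beta chain, averaged 62.9 units in 33D1 DCs, 496 in CD4 T cells and 24850 in CD8 T cells.

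**Figure D1:**
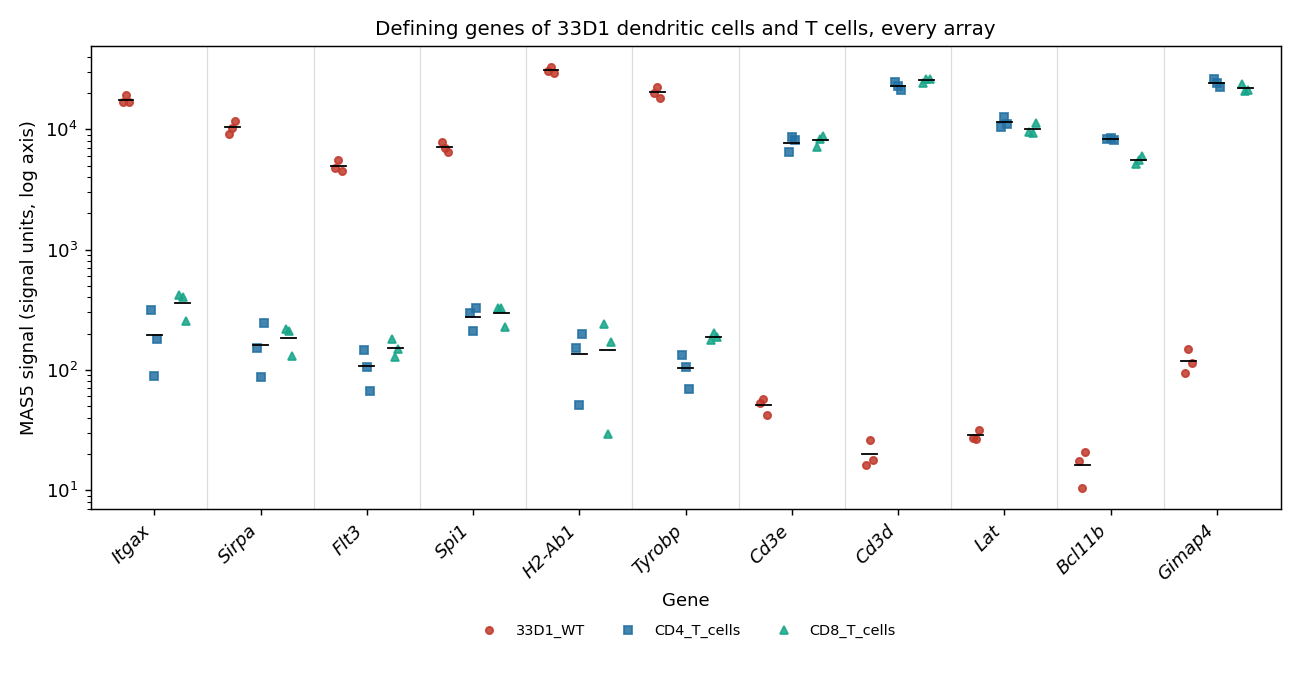
MAS5 signal (log axis, signal units) of 11 lineage genes on the 3 arrays each of 33D1 DCs, CD4 T cells and CD8 T cells, with a bar at each group mean. Itgax, Sirpa, Flt3, Spi1, H2-Ab1 and Tyrobp are high on the 3 33D1 arrays alone, and Cd3e, Cd3d, Lat, Bcl11b and Gimap4 only on the 6 T cell arrays.

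Across the array, 5882 of 13284 genes were called (44.3%). Of these, 2595 were higher in 33D1 DCs (19.5%) and 3287 were lower (24.7%), and 1373 were higher by at least 2-fold (10.3%) against 1088 lower by at least 2-fold (8.19%). The 3 signals of 33D1 DCs all exceeded the 6 of T cells for 2272 genes (17.1%) and all lay below them for 2713 (20.4%). The median difference over all genes tested was -0.13. These shares are the background against which the counts in the gene lists below are read. Against CD4 T cells alone 2344 genes were called higher and 2810 lower, and against CD8 T cells alone 2429 higher and 2954 lower.

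**Figure D2:**
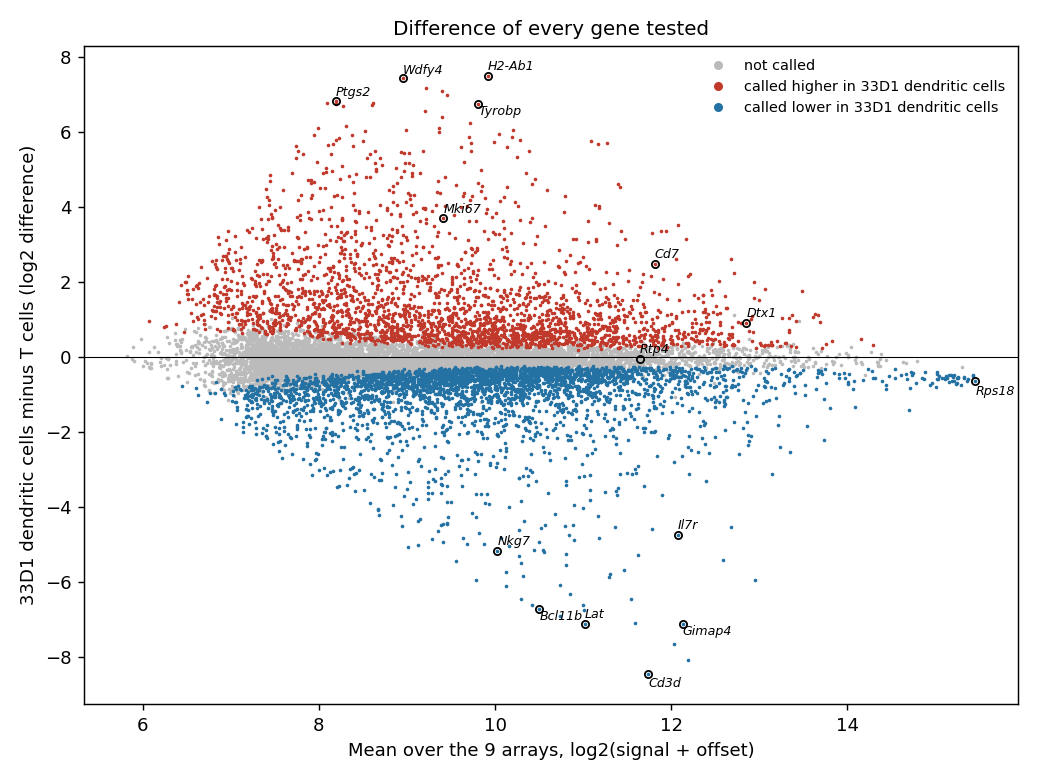
Difference between 33D1 DCs and T cells (y axis, log2) of each of the 13284 genes against its mean over the 9 arrays (x axis, log2 of signal plus offset), coloured by call. Named genes include H2-Ab1 and Wdfy4 at the top, Cd3d at the bottom, and Rtp4, near 0 at -0.05.

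Genes of MHC class II presentation held the highest difference of all named genes. H2-Ab1, the beta chain of the class II molecule I-A, had 30470.2, 33015.6 and 29399.4 units in 33D1 DCs, against 153.1, 51.2 and 199.1 in CD4 T cells and 241, 29.1 and 171.9 in CD8 T cells. The T cell arrays were low without exception, and the difference was 7.50 ± 0.29 (adjusted p = 2.698e-15), a 181-fold change on the offset scale. Of 20 class II genes measured, 18 were called higher and 2 lower, with a median difference of 3.84. The chains and peptide exchange factors all rose, from 2.99 ± 0.09 for H2-Ob upward. H2-DMa (3.64 ± 0.12) and H2-DMb2 (7.19 ± 0.25) form the DM catalyst that exchanges peptides on class II.

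Cd74, the invariant chain that holds new class II molecules, averaged 34740 ± 1709 units in 33D1 DCs, 670 ± 296 in CD4 T cells and 645 ± 301 in CD8 T cells. Ciita, the transactivator on which class II transcription depends, averaged 4379 ± 748 in 33D1 DCs, 81.6 ± 18 in CD4 T cells and 69.5 ± 43 in CD8 T cells, a difference of 5.19 ± 0.27. The class II ligase Marchf1, which tags surface class II for removal, was higher by 5.50 ± 0.14, although another probe set of Marchf1 gave -0.27 and was not called. The proteases split. Ctsh was higher by 6.42 ± 0.14, Ctss, which trims the invariant chain in DCs, by 1.15 ± 0.11, and the thiol reductase Ifi30 by 4.55 ± 0.10, while the other 2 members went against the list: Ctsd, an aspartic protease, fell by 1.97 and Ctsl, a cysteine protease that trims the invariant chain in thymic epithelium, fell by 1.08. Ctse, higher by 1.24, had another probe set called the other way (-1.40).

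RefSeq windows of 300 bases around the gene start (250 before, 50 after; build GRCm38.p6) were available for 6 of the class II genes. They are shown because the list moved together by large amounts and class II promoters share a known element, the Y box, which holds an inverted CCAAT. The letters CTGATTGG were searched on both strands; they were picked after several spellings had been looked at. They occur in a window of 3 of the 6 genes (H2-Aa, H2-Eb1 and H2-Oa, with 1 window each; H2-DMa has 2 windows and neither holds them). Of all 32851 windows, 4.1% hold them. Capitals mark the match, which lies 51 to 44 bases before the start in H2-Aa (chr17:34287774-34288073, minus strand), 62 to 55 bases before it in H2-Eb1 (chr17:34305617-34305916, plus strand) and 46 to 39 before it in H2-Oa (chr17:34092129-34092428, plus strand). A match is a description of the letters and not of binding.
H2-Aa: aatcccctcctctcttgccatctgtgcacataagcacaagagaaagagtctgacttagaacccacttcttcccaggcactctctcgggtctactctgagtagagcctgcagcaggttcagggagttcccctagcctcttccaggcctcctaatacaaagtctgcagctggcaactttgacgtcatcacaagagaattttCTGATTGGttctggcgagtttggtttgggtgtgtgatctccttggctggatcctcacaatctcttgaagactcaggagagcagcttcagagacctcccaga
H2-Eb1: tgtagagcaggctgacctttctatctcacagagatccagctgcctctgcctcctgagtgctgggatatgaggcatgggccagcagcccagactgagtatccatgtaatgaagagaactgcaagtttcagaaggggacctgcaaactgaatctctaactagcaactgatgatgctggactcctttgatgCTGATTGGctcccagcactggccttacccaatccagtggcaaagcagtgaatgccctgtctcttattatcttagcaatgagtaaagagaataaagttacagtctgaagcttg
H2-Oa: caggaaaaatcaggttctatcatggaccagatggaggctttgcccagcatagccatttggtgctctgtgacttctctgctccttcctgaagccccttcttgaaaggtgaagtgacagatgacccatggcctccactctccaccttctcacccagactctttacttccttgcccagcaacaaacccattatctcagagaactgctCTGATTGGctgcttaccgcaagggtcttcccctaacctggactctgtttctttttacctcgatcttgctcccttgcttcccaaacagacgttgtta
These 3 genes were higher in 33D1 DCs by 5.77 ± 0.27 (H2-Aa), 5.68 ± 0.22 (H2-Eb1) and 4.04 ± 0.12 (H2-Oa). H2-DMa, H2-DMb2 and H2-Ob, without the letters in their windows, were higher too, by the values given above.

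MHC class I presentation, which serves CD8 T cells and runs in nearly every cell, differed far less. Of 17 genes measured, 2 were called higher and 9 lower, with a median of -0.31 and 6 not called. Against CD4 T cells alone 5 were called lower, and with median centring 6. Quantile normalization gave 3 higher and 9 lower. The heavy chains H2-K1 (-0.55 ± 0.13) and H2-D1 (-0.41 ± 0.15) and B2m, their shared light chain (-0.40 ± 0.15), were modestly lower in 33D1 DCs with the deposited scaling. They belong to the bright genes listed below as high in both cell kinds. Most calls on the brightest of those were lost under quantile normalization, as given below. H2-K1, H2-D1 and B2m were not looked at one by one under that setting, so whether their calls hold was not tested. The lowest difference was that of Nlrc5, the transactivator of class I genes. It had 1526.8, 1841.8 and 1515.1 units in 33D1 DCs, against 3448.2, 4059.4 and 3751.4 in CD4 T cells and 5128, 4402.9 and 5072.8 in CD8 T cells, a difference of -1.37 ± 0.13 (adjusted p = 1.199e-08). Psmb9, a catalytic subunit of the immunoproteasome, was called higher by 0.60 ± 0.12 and the chaperone Calr by 0.44 ± 0.12, while the transporter subunit Tap2 fell by 0.62 and Tap1, at -0.17, was not called.

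DC lineage receptors and transcription factors were higher almost throughout: 17 of 19 measured were called higher, none lower, with a median of 3.65. Flt3, the cytokine receptor that DC development depends on, had 4737.9, 5567.4 and 4494.2 units in 33D1 DCs, against 147.5, 106.2 and 67.2 in CD4 T cells and 179.9, 128.9 and 149.5 in CD8 T cells (difference 4.83 ± 0.14, adjusted p = 2.936e-17). Spi1, which encodes the myeloid factor PU.1, was higher by 4.43 ± 0.13, Batf3, a factor required by CD8-positive DCs, by 5.41 ± 0.21, Zbtb46, a factor of classical DCs, by 4.38 ± 0.21, and Irf4, a factor of CD8-negative DCs, by 2.87 ± 0.33. The growth factor receptor chains Csf2ra (4.40 ± 0.13) and Csf1r (4.03 ± 0.21) rose with them. Neither exception was close to a call. Irf8, a factor of CD8-positive and plasmacytoid DCs, averaged 319 ± 119 units in 33D1 DCs, 278 ± 68.7 in CD4 T cells and 276 ± 78.5 in CD8 T cells (difference 0.15 ± 0.37), and Cebpb, a myeloid factor, gave -0.03 ± 0.40.

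Markers of CD8-negative DCs were called higher for 15 of 16 genes measured, with a median of 3.61. They include the uptake receptors Clec7a (3.98 ± 0.30) and Cd209a (4.38 ± 0.23), the inhibitory receptors Cd300a (5.31 ± 0.22) and Clec4a2 (4.68 ± 0.27, with 1.38 on its other probe set), the adhesion molecule Esam (3.51 ± 0.17) and the crosslinking enzyme Tgm2 (7.0 ± 0.32, and between 3.75 and 7.34 on its other probe sets). Tgm2 had 17322.7, 18660.3 and 17268 units in 33D1 DCs, against 115.9, 133.4 and 170.2 in CD4 T cells and 69.7, 22 and 83 in CD8 T cells. Those T cell signals lie around or below the array medians. The list also holds genes that T cells carry, which set them apart from the rest of it: Ltb, a lymphotoxin chain, fell by 0.56 (a call lost with median centring or quantile normalization), Dtx1 rose by 0.91, and Cd4 had opposite differences from the T cell groups, as described with the shared genes below.

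**Figure D3:**
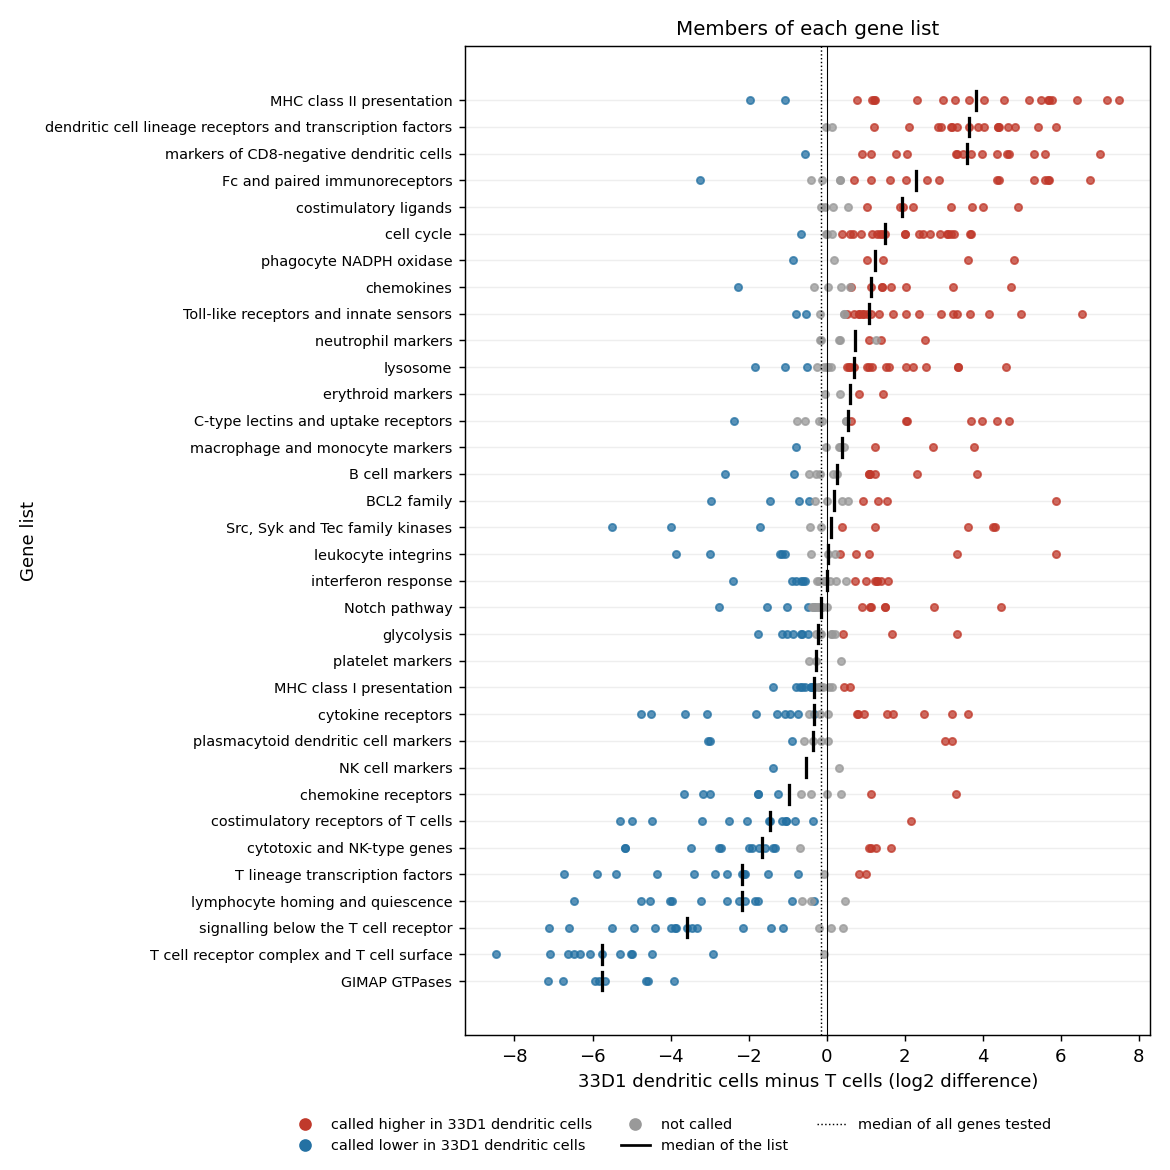
Difference of every measured member of the 34 gene lists (x axis, log2, 33D1 DCs minus T cells; one row per list, sorted by its median), coloured by call, with a bar at each list's median and a dotted line at the median of all genes, -0.13. MHC class II presentation sits at the top with a median of 3.84 and GIMAP GTPases at the bottom with -5.76.

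Receptors and sensors of the innate system were next. Both above and below, list members named beyond the 4 with the smallest adjusted p were picked after their values were seen. Of 18 Fc and paired immunoreceptors measured, 13 were called higher and 1 lower, with a median of 2.30. Tyrobp, the adaptor DAP12 through which many myeloid receptors signal, had 20053.8, 22635.7 and 18395.4 units in 33D1 DCs, against 133.2, 105 and 69.5 in CD4 T cells and 177.7, 201.3 and 188.4 in CD8 T cells (difference 6.76 ± 0.12, adjusted p = 1.358e-20). The groups did not overlap. Fcer1g, the common Fc receptor gamma chain, was higher by 5.71 ± 0.26 and the inhibitory receptor Pirb by 5.69 ± 0.20. The exception was Treml2, a receptor of the TREM family found on lymphocytes, which fell by 3.24. Among 14 C-type lectins and uptake receptors, 7 were called higher and 1 lower (Ly75), with a median of 0.55, and Mrc1, Clec10a, Clec4d, Cd207, Axl and Cd36 were not called.

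Of 24 Toll-like receptors and innate sensors, 19 were called higher and 2 lower, with a median of 1.08. Ly86, which encodes the MD-1 partner of the receptor Cd180, was higher by 6.55 ± 0.28, Unc93b1, the chaperone of endosomal Toll-like receptors, by 4.17 ± 0.12, Tlr13, a sensor of bacterial RNA, by 3.67 ± 0.26, and Mefv, the pyrin sensor, by 3.34 ± 0.21. The cytokine Il1b was higher by 4.98 ± 0.40. Tlr4, the lipopolysaccharide receptor, averaged 194 units in 33D1 DCs, 66.9 in CD4 T cells and 163 in CD8 T cells (difference 0.70 ± 0.25), and its coreceptor Cd14, at 0.46 ± 0.44, was not called. Pycard, the inflammasome adaptor, fell by 0.53 and Tlr12, a profilin sensor, by 0.78, Tlr12 on signals of 11.9 units in 33D1 DCs, 15.5 in CD4 T cells and 137 in CD8 T cells.

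The partners of costimulation fell on opposite sides. Among 12 ligands that DCs use to instruct T cells, 8 were called higher in 33D1 DCs and none lower, with a median of 1.92, while among 14 receptors that T cells use, 1 was called higher and 13 lower, with a median of -1.46. Of these receptors, 13 were called lower against CD4 T cells alone (median -2.08) and 9 against CD8 T cells alone (median -1.30). Cd40, the receptor through which T cell help reaches DCs, had 1840.9, 1676.3 and 1709.8 units in 33D1 DCs, against 66.4, 93.3 and 29.1 in CD4 T cells and 58.7, 24.5 and 142.1 in CD8 T cells (difference 4.01 ± 0.21). Cd83, a surface protein of activated DCs, was higher by 4.91 ± 0.29, the Cd28-family ligand Cd80 by 3.19 ± 0.31 and its partner Cd86 by 1.88 ± 0.20, and Icosl by 3.73 ± 0.18, with -0.15 on another Icosl probe set. In the T cell list, Cd28 fell by 5.30, with a lower level in CD8 than in CD4 T cells (2717 ± 182 against 6369 ± 625 units), Cd27 fell by 4.99 and Ctla4, an inhibitory receptor of activated and regulatory T cells, by 3.20. The exception was Lag3, an inhibitory receptor of class II molecules. It had 823, 566.2 and 490.3 units in 33D1 DCs, against 156.7, 36.1 and 215.4 in CD4 T cells and 98.7, 175.6 and 20.7 in CD8 T cells, a difference of 2.16 ± 0.36.

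Secreted and received signals also separated the cells. Of 13 chemokines, 8 were called higher and 1 lower, with a median of 1.15. Ccl3, an inflammatory chemokine, was higher by 4.72 ± 0.45, Ccl6 by 3.23 ± 0.22 and the interferon-induced Cxcl9 by 2.04 ± 0.16, while Xcl1, the ligand of the receptor on CD8-positive DCs, fell by 2.26. Another probe set of Cxcl9 gave 0.48 and was not called. Of 12 chemokine receptors, 2 were called higher and 6 lower, with a median of -0.96. Ccr6, the receptor of Ccl20, had 3205, 3311.2 and 3227 units in 33D1 DCs, against 896.3, 239.1 and 534.6 in CD4 T cells and 138.2, 262.8 and 91.9 in CD8 T cells, and was higher by 3.32 ± 0.28. Ccr7, which guides cells into T cell zones, fell by 1.75 and Cxcr3, a receptor of T cells homing to inflammation, by 3.17. Of 21 cytokine receptors, 8 were called higher and 10 lower, with a median of -0.33: Il10ra was higher by 3.23 ± 0.14 and Il1r2, a decoy receptor, by 3.62 ± 0.39, whereas Il7r, the survival receptor of resting T cells, fell by 4.74 and Il2rb by 4.49.

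The T cell receptor complex and T cell surface list was the mirror of class II. Of 13 genes, 12 were called lower in 33D1 DCs and none higher, with a median of -5.75. Beside Cd3d (-8.47 ± 0.13, adjusted p = 1.031e-21) and Cd3e (-6.32 ± 0.21), Cd3g fell by 7.10, the zeta chain gene Cd247 by 6.07, and Thy1, a surface glycoprotein of T cells, by 6.47. Other probe sets of Cd247 gave -6.22, -2.52 and -0.85, the last not called. Ly9, a SLAM-family receptor of many lymphocytes, was the exception at -0.08 ± 0.11, with 2198 units in 33D1 DCs, 2260 in CD4 T cells and 2405 in CD8 T cells. Probe sets annotated to receptor gene segments, Trav9d-3 (-8.10) and Trbv1 (-7.67), fell, and their other probe sets gave -7.03 to -2.72.

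Downstream of the receptor, 14 of 17 genes measured were called lower and none higher, with a median of -3.58. Lat, the membrane adaptor that gathers the signalling complex, had 27.3, 26.5 and 31.5 units in 33D1 DCs, against 10462.3, 12750.1 and 11044.8 in CD4 T cells and 9588.8, 9385.1 and 11374.8 in CD8 T cells (difference -7.13 ± 0.16, adjusted p = 5.803e-19). The kinase genes Prkcq and Zap70 fell by 6.61 and 5.51, though 1 of the other probe sets of Zap70 gave -0.23 and was not called. The 3 members that were not called were the adaptor Lcp2, also used by myeloid cells (6375 ± 443 units in 33D1 DCs, 6514 ± 272 in CD4 T cells and 5275 ± 546 in CD8 T cells), the phosphatase Ptpn22 (-0.18 ± 0.12) and the factor Nfatc2 (0.43 ± 0.20).

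The tyrosine kinases that start these signals divided between the cells. Of 10 Src, Syk and Tec kinases measured, 5 were called higher and 3 lower, with a median of 0.12. Syk, the kinase of Fc and paired receptors, had 4120.4, 4117.9 and 3245.7 units in 33D1 DCs, against 123.1, 163.3 and 191.7 in CD4 T cells and 178.6, 152 and 85.2 in CD8 T cells. Its T cell relative Zap70 had 63.5, 68.9 and 23.3 units in 33D1 DCs, against 3852, 4941.5 and 4398.9 in CD4 T cells and 4191, 3908.6 and 5409.9 in CD8 T cells. The differences were 4.31 ± 0.15 for Syk and -5.51 ± 0.20 for Zap70. The Tec family divided as well, with Btk higher by 4.26 ± 0.26, Txk lower (-4.00 ± 0.30) and Tec itself not called (-0.15 ± 0.17), and so did the Src family, with Fgr higher by 3.64 ± 0.14 and Fyn lower (-1.70 ± 0.12).

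T lineage transcription factors were called lower for 12 of 15 genes and higher for 2, with a median of -2.16. Bcl11b, which fixes T cell identity, had 17.6, 10.4 and 20.9 units in 33D1 DCs, against 8306.3, 8498.1 and 8088.1 in CD4 T cells and 5192.8, 5553.9 and 6032.4 in CD8 T cells (difference -6.73 ± 0.24). Lef1 (-5.88), Ets1 (-5.41) and Id3 (-4.34), factors of resting and developing T cells, fell too. The 2 that went up were Zbtb7b, the factor of the CD4 helper fate (0.83 ± 0.16), and Runx3, the factor of the CD8 fate, which DCs also use (0.998 ± 0.16). Zbtb7b averaged 1073 units in 33D1 DCs, 1442 in CD4 T cells and 231 in CD8 T cells, so its difference from the mean of both T cell groups follows the low CD8 level.

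Genes of lymphocyte homing and quiescence were called lower for 13 of 16 and higher for none, with a median of -2.16. Slfn1, a gene of resting T cells, fell by 6.47, the lipid kinase Dgka fell by 4.53, and S1pr1, the receptor that lets lymphocytes leave tissue, fell by 4.03. All 8 GIMAP GTPases, which support lymphocyte survival, were called lower, with differences of -7.13 (Gimap4) to -3.90 (Gimap5) and a median of -5.76. Gimap4 had 93.5, 150.2 and 113.5 units in 33D1 DCs, against 26468.7, 24460.8 and 22598.4 in CD4 T cells and 23890.1, 20950.4 and 21382.7 in CD8 T cells. Their summed signal was 753 to 986 units on the 33D1 arrays and 58930 to 77520 on the T cell arrays.

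Cytotoxic and NK-type genes were mixed, and the T cell groups differed within them. Of 16 genes, 4 were called higher and 11 lower, with a median of -1.66. Nkg7, a granule protein, had 60.1, 24.9 and 60.9 units in 33D1 DCs, against 1386.5, 404.3 and 1558.6 in CD4 T cells and 9951.5, 11443.1 and 13692.1 in CD8 T cells. The CD8 arrays were the highest and CD4 replicate 2 the lowest of the T cell arrays. The difference was -5.17 ± 0.39. The granule genes Ctsw (-5.16 ± 0.32) and Prf1 (-2.71 ± 0.25) fell too. The 4 that were called higher were Klrd1, Klrk1, Ccl5 and Tbx21, receptors, a chemokine and a transcription factor rather than granule genes, and none of the 4 was called against CD8 T cells alone. Ccl5 had 11487.9, 13973.5 and 8894 units in 33D1 DCs, against 2138.2, 559.4 and 2553.6 in CD4 T cells and 5923.6, 9665 and 10414.7 in CD8 T cells, which overlapped with the 33D1 arrays.

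The cell cycle list rose in 33D1 DCs: 21 of 25 genes were called higher and 1 lower, with a median of 1.5. Mki67, a protein of dividing cells, had 3633.9, 3450.1 and 4086.3 units in 33D1 DCs, against 403.4, 82.7 and 391.7 in CD4 T cells and 301.2, 268.1 and 156.4 in CD8 T cells (difference 3.70 ± 0.33, adjusted p = 3.323e-09). The 33D1 arrays were all higher. The mitotic checkpoint kinase Bub1b (3.67 ± 0.24), the ribonucleotide reductase subunit Rrm2 (3.28 ± 0.29) and the topoisomerase Top2a (2.90 ± 0.26) moved with it. Mcm5 and Mcm6, subunits of the replicative helicase, were called higher at 1.37 ± 0.14 (Mcm5) and 0.41 ± 0.14 (Mcm6). Mcm2 (-0.03), Ccne1 (0.01) and the sliding clamp Pcna (0.14) were not called, and the replication factor Cdt1 fell by 0.65.

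Intake and breakdown genes were mostly higher. Of 23 lysosomal genes, 15 were called higher and 3 lower, with a median of 0.70. Cd68, a lysosomal glycoprotein of myeloid cells, was higher by 4.60 ± 0.15, the cathepsin Ctsz and the progranulin gene Grn by 3.37 each and the ceramidase Asah1 by 2.56 ± 0.09. The sterol carrier Npc2 went the other way and fell by 1.84. Of 6 genes of the phagocyte NADPH oxidase, 4 were called higher and 1 lower, with a median of 1.24. Cybb, its catalytic subunit, was higher by 4.80 ± 0.26 and the organiser Ncf1 by 3.62 ± 0.16, while the GTPase Rac2, shared with lymphocytes, fell by 0.85.

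Other families held members on both sides. Of 13 leukocyte integrins, 5 were called higher and 5 lower (median 0.04): Itgam, the CD11b chain, was higher by 3.34 ± 0.23, whereas Itga6, a laminin receptor chain, fell by 3.85 and Itgae by 2.99. Of 12 BCL2 family genes, 4 were called higher and 4 lower (median 0.20). Pmaip1, a killer protein of the family, had 11703, 14605.8 and 11717.7 units in 33D1 DCs, against 132.1, 119.2 and 160 in CD4 T cells and 171.3, 149.8 and 311.8 in CD8 T cells. Bcl2, the survival protein, had 308.6, 274.3 and 263.4 units in 33D1 DCs, against 2492, 2198.4 and 2347.6 in CD4 T cells and 2673.1, 3255.4 and 2423.2 in CD8 T cells. The groups did not overlap for either gene, with differences of 5.88 ± 0.26 for Pmaip1 and -2.97 ± 0.13 for Bcl2, and the partner Mcl1 was not called (0.01 ± 0.13).

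The Notch pathway, of which the shared gene Dtx1 is a member, was called higher for 7 of 22 genes and lower for 5, with a median of -0.15. With median centring, or against CD4 T cells alone, 3 were called lower. Among receptors, Notch2 was higher by 1.51 ± 0.12 and Notch1 lower (-2.76 ± 0.17). Notch1 had 203.4, 137.4 and 176.6 units in 33D1 DCs, against 1393.1, 1705.8 and 1500.8 in CD4 T cells and 1644.4, 1001.6 and 1483.6 in CD8 T cells. Among ligands, Jag1 was higher by 4.47 ± 0.21, and its other probe sets gave 2.12 and 0.28, the second not called, while Jag2, Dll1 and Dll4 were not called. The target Hes1 was higher by 2.75 ± 0.25 and the shared nuclear factor Rbpj by 1.14 ± 0.09. Notch2 also had a second probe set that was not called (-0.08).

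Interferon response genes were called higher for 7 of 20 and lower for 6, with a median of 0.02, so no direction of the list can be given. The sensor Ifih1 was higher by 1.57 ± 0.20 and the factor Stat2 by 1.39 ± 0.13, while the GTPase Gbp2 fell by 2.40. Of 16 glycolysis genes, 3 were called higher and 7 lower, with a median of -0.22. Hk2, an inducible hexokinase, was higher by 3.35 ± 0.21 and the glucose transporter Slc2a3 by 1.67 ± 0.17, while Pfkp, a phosphofructokinase, fell by 1.77, Slc2a1 by 1.01 and Aldoa by 1.14.

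Several genes outside these lists were among the 15 with the highest differences. Wdfy4, a protein needed by CD8-positive DCs to cross-present, had 14685.9, 16756.8 and 14841.5 units in 33D1 DCs, against 142.7, 20.6 and 27.4 in CD4 T cells and 30.8, 32.2 and 25.3 in CD8 T cells (difference 7.45 ± 0.21), though its other probe set gave 0.59 and was not called. Ptgs2, the inducible cyclooxygenase, had 5683.6, 12594.2 and 4374.4 units in 33D1 DCs, against 8, 3.5 and 4 in CD4 T cells and 2.8, 30.4 and 28 in CD8 T cells. Replicate 2 stood above the other 33D1 arrays, and the standard error of its difference (6.83 ± 0.61) was the largest among the 30 extreme genes. Napsa, an aspartic protease (7.09), Tgfbi, a matrix protein (6.78), Sash1, a scaffold protein (6.75), Cfp, the complement factor properdin (6.71), Fscn1, the actin bundler of mature DCs (6.70), Alox5ap, a protein of leukotriene synthesis (6.24), and Bex6 (6.15) complete the set with those named above. Fscn1 had differences of only 2.09 to 2.64 on its other probe sets, and a second probe set of Cfp gave -0.27 and was not called.

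At the low end, genes not yet named were Cd2, an adhesion receptor of T cells (-6.62), Gimap6 (-6.76), Dapl1 (-6.91) and Ikbke, a kinase of the innate response (-6.10). Dapl1 had 15.8, 8.6 and 43.6 units in 33D1 DCs, against 5642.8, 7364.9 and 6093.2 in CD4 T cells and 9207.1, 10933.4 and 13444 in CD8 T cells. Ikbke had 23.8, 14.3 and 16.5 units in 33D1 DCs, against 4437.6, 5959.1 and 4227.5 in CD4 T cells and 5578.8, 3161.8 and 4404.8 in CD8 T cells. For both genes every 33D1 array lay below every T cell array.

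Genes high in both cell kinds were listed in 2 ways, as a description without a test. The first way took genes in the top 10 percent of every one of the 9 arrays with a difference under 1 either way. Against 44.3% called among all genes tested, with no such limits, 334 of these 674 genes were called. Symbols of 36 start with Rpl or Rps, and these encode ribosomal proteins, except the kinase gene Rps6ka3. The 10 with the highest mean were Rps18, Eef1a1, Rps29, Rps3a1, Rpl37a, Rplp2, Tpt1, Tmsb4x, Rpsa and Rpl13a. They are parts of the ribosome and of translation, except Tpt1 and the actin-binding thymosin Tmsb4x. Rps18 had 29000.4, 33817.3 and 37227.1 units in 33D1 DCs, against 59996.7, 45468.6 and 47418.8 in CD4 T cells and 54535.5, 56334.8 and 50719.3 in CD8 T cells. These 10 had differences of -0.75 (Rpsa) to -0.26 (Tmsb4x) with the deposited scaling, of which 9 were called, but quantile normalization turned Eef1a1 to 0.04, Rps29 to 0.04, Tpt1 to 0.02, Tmsb4x to 0.29 and Rpl13a to 0.02, and of the 9 calls only that of Rpsa held under it, so their direction depends on the scaling.

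The second way took genes that exceeded both DEC205 DCs and B cells by at least 1 (log2). The excess was asked of 33D1 DCs and of the mean of CD4 and CD8 T cells, with an adjusted p under 0.05 in each of the 4 contrasts. This rule did not ask it of each T cell group, and it found 37 genes. DEC205 replicate 3 had more Cd7 signal than the other DEC205 arrays (562.3 units against 135.1 and 22.3) and was taken as possibly mixed. Replicate 3 of the 33D1 DCs from mice injected with a melanoma that makes the DC growth factor Flt3L was also taken as possibly mixed. Without both arrays the count was 41. St8sia1, the ganglioside synthase, led the list with 1727.5, 2314.6 and 1998.3 units in 33D1 DCs, against 2119.9, 2559.6 and 2404.4 in CD4 T cells and 1455.6, 1474 and 1324.3 in CD8 T cells, and averages of 82.8 units in DEC205 DCs and 51.6 in B cells. The 33D1 arrays lay among the T cell arrays, and the difference of 0.13 ± 0.21 was not called.

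Cd7, a receptor of T and NK cells, followed. It had 12001.6, 11868.9 and 10167.1 units in 33D1 DCs, against 1261.8, 1227.6 and 1042 in CD4 T cells and 3016.6, 2381.1 and 5012.6 in CD8 T cells, while DEC205 DCs averaged 240 units and B cells 32.2. Although it is known from lymphocytes, Cd7 was higher in 33D1 DCs than on any T cell array, by 2.49 ± 0.37 (adjusted p = 8.328e-06). Emb, an adhesion protein, and Ms4a6b, a membrane protein of T cells, were lower in 33D1 DCs than in T cells, with differences of -1.25 ± 0.18 (Emb) and -1.34 ± 0.12 (Ms4a6b). Other probe sets of Emb gave -0.51, which was called, and -0.62, which was not. Gbp8, an interferon-induced GTPase (0.43 ± 0.20), and Rundc3b (0.18) were not called. Fyb, an adaptor below the T cell receptor that myeloid cells also carry, was called at 0.32 ± 0.11, but not on its other probe set (0.10). On the same probe set its call was lost without 33D1 replicate 2 (0.28), 33D1 replicate 3 (0.32) or CD8 replicate 2 (0.29), with adjusted p of 0.05019 to 0.1064.

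**Figure D4:**
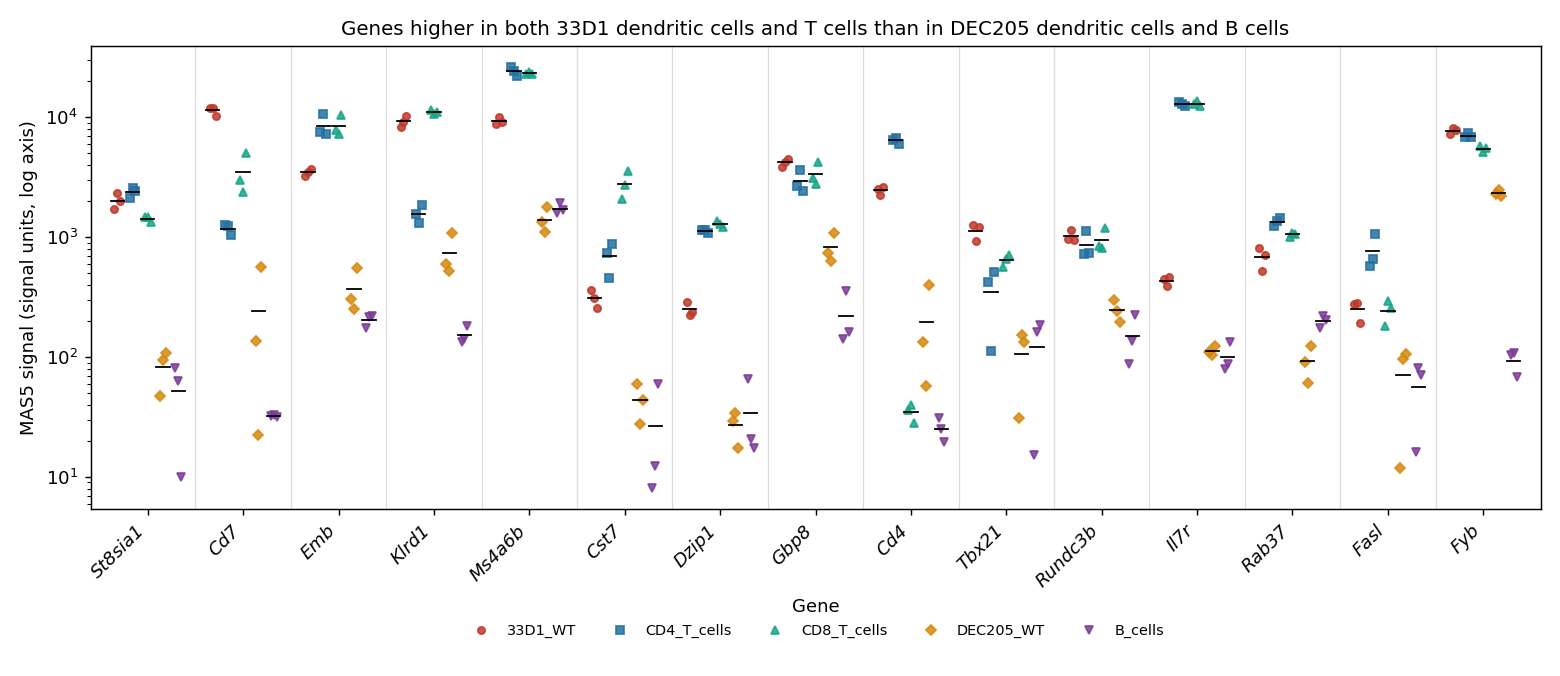
MAS5 signal (log axis, signal units) of the first 15 genes of the second list on the arrays of 33D1 DCs, CD4 T cells, CD8 T cells, DEC205 DCs and B cells, with a bar at each group mean. Cd7 is highest on the 33D1 arrays, and Il7r is listed although 33D1 DCs averaged only 434 units, against 12840 in CD4 T cells and 12910 in CD8 T cells.

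The list was not uniform. Some members reached it from a low level in 33D1 DCs: Il7r, Dzip1, Cst7 and Cd5 were called lower there, and Cst7, an inhibitor of cathepsins, averaged 310 units in 33D1 DCs, 692 in CD4 T cells and 2770 in CD8 T cells. Others were high in both, among them the adaptor Lcp2 and Ccl5. Cd4 passed on the mean of the T cell groups, with 6384 units in CD4 T cells, 34.6 in CD8 T cells and 197 in DEC205 DCs. Tbx21, the T-bet factor of type 1 responses, was called higher by 1.26 ± 0.39 (adjusted p = 0.01169). It had 1257.7, 932.5 and 1201.9 units in 33D1 DCs, against 419, 112.7 and 511.1 in CD4 T cells and 558.7, 657.1 and 708.7 in CD8 T cells, and it was not called without 33D1 replicate 1 (difference 1.18, adjusted p = 0.05048).

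Dtx1 and Rtp4 missed the second list, since neither exceeded B cells by 1 (log2) in both cell kinds. Dtx1, a ubiquitin ligase and target of Notch, had 11842.1, 11911.6 and 9991.5 units in 33D1 DCs, against 4744, 5752.6 and 5876.7 in CD4 T cells and 6661.1, 6046 and 6907.7 in CD8 T cells, with 6283 on average in B cells and 409 in DEC205 DCs. It was higher on all 33D1 arrays, by 0.91 ± 0.28 (adjusted p = 0.01091), and the difference from CD8 T cells alone, 0.78, was not called (adjusted p = 0.0609). Rtp4, an interferon-induced chaperone of receptors, had 2990.1, 3221.8 and 3002.1 units in 33D1 DCs, against 3090.3, 3980.6 and 2206.6 in CD4 T cells and 3238.3, 2534.7 and 4646.7 in CD8 T cells, with 1686 on average in B cells and 113 in DEC205 DCs. The 33D1 arrays lay within the range of the T cell arrays, and the difference of -0.05 ± 0.34 was not called (adjusted p = 0.9235), nor was that of its other probe set (0.51).

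The coreceptors separate the T cell groups, and 33D1 DCs shared 1 of them. Cd4 had 2509.6, 2226.3 and 2632.1 units in 33D1 DCs, against 6413.4, 6734 and 6005.5 in CD4 T cells and 36.2, 39.6 and 28 in CD8 T cells. The 33D1 arrays lay between the T cell groups: below CD4 T cells (-1.36) and above CD8 T cells (4.91). Cd8a had 129.4, 372.2 and 124.7 units in 33D1 DCs, against 97.6, 108.3 and 40.6 in CD4 T cells and 18364.8, 19309.9 and 19557.8 in CD8 T cells, so it was higher than in CD4 T cells (0.89) and far lower than in CD8 T cells. The Cd8a signals in 33D1 DCs and CD4 T cells were low, and the 33D1 array at 372.2 units stood above the other 33D1 arrays. Cd4 and Cd8a were the only 2 of the 175 named genes called in opposite directions against the 2 T cell groups.

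CD8 and CD4 T cells differed in 433 genes (3.26%). The 33D1 DCs lay nearer to one or the other T cell group, depending on the gene. Klrd1, the CD94 chain of NK receptors, had 8286.1, 9169.9 and 10275 units in 33D1 DCs, against 1545.1, 1301.5 and 1846.3 in CD4 T cells and 11549.2, 10536.1 and 11065 in CD8 T cells. The 33D1 arrays lay just below the CD8 arrays and well above the CD4 arrays. The integrin chain Itgae, known from CD8-positive DCs and CD8 T cells, had 129.8, 113.9 and 94.1 units in 33D1 DCs, against 381.7, 120.5 and 381 in CD4 T cells and 5020.6, 4478.4 and 5987.3 in CD8 T cells. The 33D1 arrays overlapped with the CD4 arrays only through the CD4 array at 120.5 units, and lay below the other CD4 arrays.

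**Figure D5:**
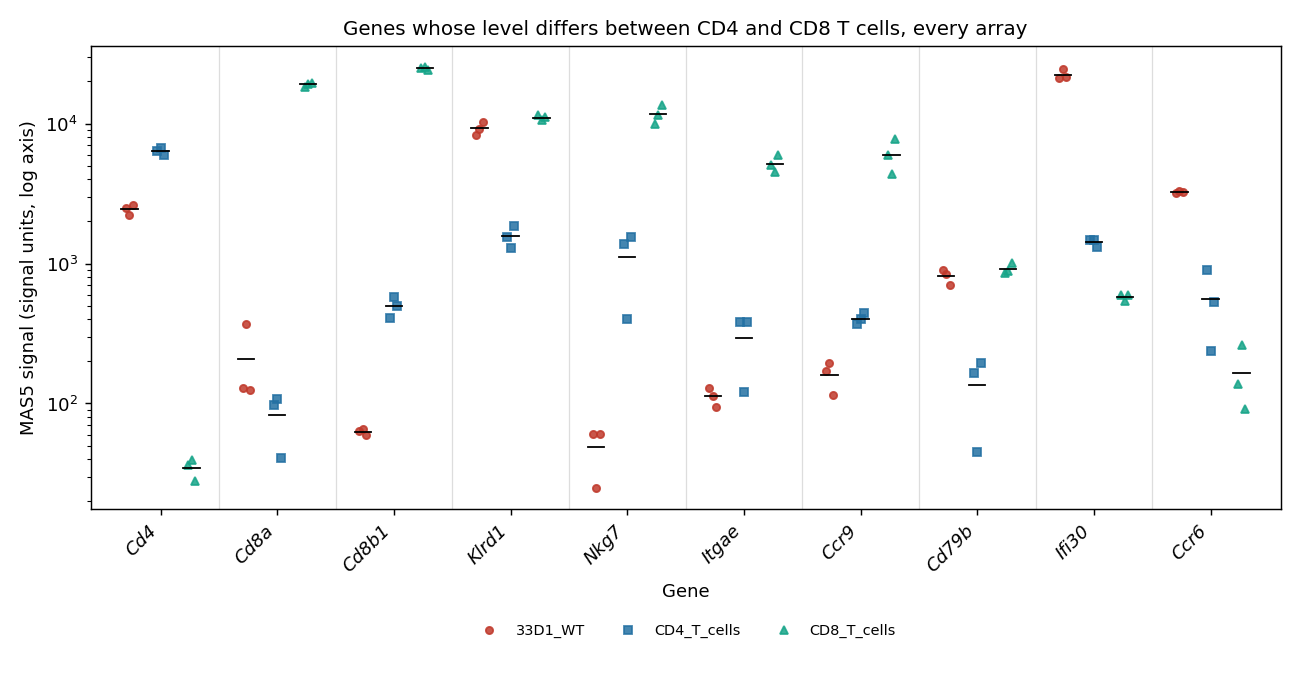
MAS5 signal (log axis, signal units) of 10 genes that differ between CD8 and CD4 T cells, on the arrays of 33D1 DCs, CD4 T cells and CD8 T cells, with a bar at each group mean. The 33D1 arrays lie between the T cell groups for Cd4, beside the CD8 arrays for Klrd1 and Cd79b, and below both groups for Cd8b1, Nkg7 and Ccr9.

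Markers of cells other than DCs and T cells were read on the same arrays. B cell markers were called higher in 33D1 DCs for 6 of 13 genes measured and lower for 2, with a median of 0.26, and their summed signal was 11660 to 13390 units in 33D1 DCs against 2317 to 6683 in T cells. Cd22, an inhibitory receptor, had 6675.2, 6744.4 and 4894.1 units in 33D1 DCs, against 434.9, 175.8 and 572.6 in CD4 T cells and 407.6, 568.2 and 251.7 in CD8 T cells, with 19480 on average in B cells. The defining marker Cd79a averaged 84.7 units in 33D1 DCs, 156 in CD4 T cells and 217 in CD8 T cells, against 29190 in B cells, and Ebf1 and Fcer2a were not called, so the genes of the list did not move together. Against CD4 T cells alone, 1 gene of the list was called lower. Ms4a1 averaged 1327 units in 33D1 DCs, 228 in CD4 T cells and 260 in CD8 T cells, against 29490 in B cells. Pou2af1 was called lower, by 2.60, with 58.1 units in 33D1 DCs and an average of 606 over the 6 T cell arrays.

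Of 8 macrophage and monocyte markers, 3 were called higher and 1, Hmox1, lower (median 0.40, summed signal 6414 to 9016 units in 33D1 DCs and 976 to 2070 in T cells). Adgre1, the F4/80 antigen, was higher by 3.79 ± 0.22 and the lysozyme gene Lyz2 by 2.73 ± 0.34, with 1586.3, 3433.6 and 1117.6 Lyz2 units in 33D1 DCs, highest on replicate 2. C1qb and Vcam1 were not called, and the call of Hmox1 (-0.80) was lost when any of 7 single arrays was left out, with adjusted p of 0.05013 to 0.1951. Of 8 neutrophil markers, 3 were called higher and none lower (median 0.72, sums 2462 to 3704 in 33D1 DCs and 763 to 1554 in T cells), with Mmp9 at 2.51 ± 0.25 and Mpo and Elane not called. The call of 1 of the 3, S100a9 (1.39), was lost without 33D1 replicate 2 (0.86, adjusted p = 0.2125) and without CD8 replicate 2 (1.16, adjusted p = 0.05213). Of 9 plasmacytoid DC markers, 2 were called higher and 3 lower (median -0.35, sums 5013 to 5761 in 33D1 DCs and 3986 to 11860 in T cells), and the defining marker Siglech was not called, at 0.04 ± 0.30. The 2 called higher were Spib (3.21) and Tcf4 (3.05), while Pacsin1 (-3.03) and Ccr9 (-2.98) were among the 3 called lower.

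Of the remaining lists, erythroid markers were called higher for 2 of 4 genes (Tfrc and Car2, median 0.59, with haemoglobin Hba-a1 not called; sums 4921 to 5119 in 33D1 DCs and 1867 to 2379 in T cells). NK cell markers were called lower for 1 of 2 (Gzma, median -0.54; sums 351 to 490 in 33D1 DCs and 264 to 1596 in T cells), and none of 3 platelet markers was called (median -0.27; sums 683 to 1236 in 33D1 DCs and 685 to 1264 in T cells). Against CD4 T cells alone, 1 NK cell marker was called higher and none lower (median 0.05). Against CD8 T cells alone, 1 was called lower and none higher (median -1.13). CD4 replicate 2 was the lowest of the CD4 arrays for Nkg7, Itgae, Cd79b, Cxcr3, Ccl5 and H2-Ab1. The part of other cells in the differences given above was not tested.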

How the data were processed

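Gene expression was measured on Affymetrix mouse arrays from 5 ug of RNA, per the labels' protocols. The authors deposited 1 signal intensity per probe set and array. The submitters' processing notes name GCOS and MAS5 as the software, without versions. All arrays had been scaled to a common trimmed mean, so the signals carry no information on total RNA per cell. Of 45101 probe sets, 34945 carried 1 gene symbol. Those above a signal of 156.3 (the table median) on at least 3 of 21 arrays were kept, and the probe set with the highest mean signal stood for its gene. Log2 of signal plus 48.6 was fitted with limma 3.58.1 in R 4.3.3 (7 group means, 21 arrays, 14 residual degrees of freedom, intensity trend). With 3 arrays a group, precision is limited by that number. The fit was tested on simulated data. Replicate numbers did not pair the samples (correlations of same-numbered deviations from -0.378 to 0.157). Deviations of differently numbered arrays correlated at -0.469 to 0.464, so some arrays of different groups shared deviations under other numbers.

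Named genes were the 15 highest and 15 lowest called differences without overlap, up to 4 members of each of 34 lists by adjusted p, the genes high in both cell kinds, the coreceptors and the markers. Members and lists were chosen with earlier results of these data known. One gene was dropped from a list because its symbol only resembled a CD3 chain. Alternatives covered normalization, offset, filter, probe set choice, arrays entering the fit, each T cell group alone, a replicate block, a 2-fold threshold and leaving out each array. Choosing the probe set by its mean log2 value was added after seeing the data.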

Additional observations from a re-analysis of the deposited data

Results flagged for a closer look

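The effect of being a 33D1 DC was measured against each T cell group, and of 175 named genes 27 had a difference between CD8 and CD4 T cells that was itself called by limma (19 higher in CD8, 8 lower). Differences below are CD8 minus CD4 (log2). Besides the coreceptors Cd8a (7.23), Cd8b1 (5.53) and Cd4 (-6.27), the granule and NK-type genes were higher in CD8 T cells: Nkg7 by 3.52, Klrd1 by 2.80, Ctsw by 2.78, Eomes by 2.06, Ctla2a by 1.997, Cst7 by 1.94 and Gzma by 1.67, whereas Fasl was lower (-1.44). Among receptors and adhesion genes, Itgae (4.04), Ccr9 (3.70), Cxcr6 (1.82) and the chemokine Xcl1 (1.59) were higher in CD8 T cells, and Ccr6 (-1.43), Cd28 (-1.21) and Itga6 (-0.75) were lower. The remaining genes were Cd79b (2.51), Ncf1 (1.52), Hk2 (1.0025), Tapbpl (0.81), Tyrobp (0.67) and Bid (0.55), which were higher in CD8 T cells, and Ifi30 (-1.23), Psen2 (-0.99) and Ifih1 (-0.86), which were lower. With 3 arrays in a group, no single array was tested as an outlier.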

How the results depend on the processing

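Of 162 called named genes, 127 kept their call in every setting that gave a value. A 2-fold threshold in the test itself left 852 genes higher and 532 lower in 33D1 DCs (61.6% of calls higher, against 44.1% in the reported fit), 1279 called against CD4 T cells, 1327 against CD8 T cells, 38 between CD8 and CD4 T cells, and 12 genes in the second list of shared genes; it asks for more than a nonzero difference, so fewer calls follow from its construction. That second list held 19 genes with an offset of 150 and 98 with a difference of at least 0.5, and the first held 1452 at the top 20 percent and 325 at the top 5 percent. Quantile normalization reversed Eef1a1 (0.036), Rps29 (0.038), Tpt1 (0.022), Tmsb4x (0.29) and Rpl13a (0.017). The probe set with the highest variance reversed Bmf (-0.24). CD4 T cells alone reversed Cd4 (-1.36) and Cd8a (0.89), and CD8 T cells alone Cd79b (-0.16) and Klrd1 (-0.26). With 33D1 DCs from the Flt3L mice, Rundc3b (-0.61), Fyb (-0.079), Dtx1 (-0.12) and Rtp4 (0.84) reversed. The causes were not tested. Median centring gave 2612 higher and 2603 lower (50.1% higher) and a median over all genes of -0.07. Interferon response genes were called higher for 12 and lower for 1 with 33D1 DCs from the Flt3L mice, against 7 and 6 in the reported fit. Leaving out 1 array gave 2312 to 2618 higher, 2785 to 3416 lower and 293 to 432 between CD8 and CD4 T cells, lowest without CD4 replicate 3. Of 1575 such values for named genes, 15 lost and 8 gained a call and 0 reversed. The replicate block gave 2575 higher and 3234 lower, and the replicate numbers share only a number.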

Other observations

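Among shared genes not described above, Abcb1a, a drug efflux pump, averaged 2078 units in 33D1 DCs, 393 in CD4 T cells and 536 in CD8 T cells, against 177 in DEC205 DCs and 169 in B cells. Its difference from T cells was 2.10. Ms4a4b, a membrane protein of T cells, passed the same rule from a far lower level in 33D1 DCs, with 462 units there, 30980 in CD4 T cells and 31640 in CD8 T cells (difference -5.94). Both genes were picked after their values were seen.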
